A study of Homo sapiens with 15 samples.

Results

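The RNA of 10 genes that act in myeloid granules or in protein citrullination was followed in K562 cells, a BCR-ABL1+ line from chronic myeloid leukemia. The genes were PADI4, PADI2, SRGN, TCN1, MPO, ELANE, PRTN3, AZU1, LYZ and PRG2. They were selected on earlier results of the same comparisons, so their levels and differences are given here as a description and carry no test. All 10 are among the 60510 genes of the table on PU-H71 resistance, and 6 of them (PADI4, TCN1, PRTN3, AZU1, LYZ and PRG2) are among the 17769 genes of the table on the knockouts, which leaves PADI2, SRGN, MPO and ELANE not analysed in the knockout cells.

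In the knockout table there are 9 libraries, 3 from cells with an empty vector (EV) and 3 from each knockout, HSP90α-KO and HSP90β-KO, for which a lentiviral guide RNA against HSP90AA1 or HSP90AB1 was brought into K562 cells that express Cas9. These are the genes of the stress-inducible and the constitutive cytosolic HSP90 isoform. The resistance table holds 3 libraries of parental cells kept long term in the solvent DMSO and 3 of PUHr cells, which were grown out under rising amounts of PU-H71, an inhibitor of the N-terminal ATP pocket of HSP90. The knockout cells were sorted by fluorescence and taken through monoclonal selection. The resistant cells went through repeated cycles of drug, and individual resistant clones were picked. The effect of a clone and that of the lost isoform or of the resistance therefore cannot be told apart. The study calls its replicates independent in the knockout and the resistance data, but the labels do not say that they were separate cultures. The p-values then measure only the spread between these samples, which may be technical.

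Each library held between 19594381 and 26216730 reads assigned to genes. A single read was worth between 0.0381 and 0.0518 CPM, the read count scaled to library size, in the knockout table and between 0.0402 and 0.0469 CPM in the resistance table. HSP90AA1 measured 704 ± 18.7 CPM (SD, n = 3) in EV, 90.4 ± 2.34 CPM in HSP90α-KO and 1206 ± 14.2 CPM in HSP90β-KO cells. HSP90AB1 measured 2806 ± 21.1, 3307 ± 38.8 and 1913 ± 25.1 CPM in the same order, so each targeted transcript was lowest in its own knockout. HSP90AB1 RNA was still abundant in HSP90β-KO, where its log2 fold change was -0.55 (SE 0.03, limma adjusted p = 1.3e-15). The erythroid markers that characterise K562 summed to between 639 and 874 CPM over the 12 of 14 read in the knockout table, and to between 2022 and 2663 CPM over all 14 in the resistance table.

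Myeloid granules are storage organelles which promyelocytes and eosinophil precursors fill in waves as they mature. Azurophil granules carry myeloperoxidase (MPO) and the serine protease family of ELANE, PRTN3 and AZU1, specific granules carry the vitamin B12 binder haptocorrin (TCN1), and eosinophil granules carry major basic protein (PRG2). Serglycin (SRGN) is the proteoglycan core on which many of these proteins are packed, and PADI4 is the enzyme that converts arginine to citrulline in histones when neutrophils cast chromatin into extracellular traps. K562 cells are blasts with erythroid and megakaryocytic features and are not mature granulocytes.

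A gene was counted as called when its adjusted p was under 0.05 and its log2 fold change lay above 1 or below -1. In HSP90α-KO against EV, 5.32% of the 17039 tested genes were called higher and 5.01% lower. In HSP90β-KO against EV the shares were 1.83% higher and 2.65% lower, and in PUHr against parental cells 5.37% higher and 4.69% lower of 16503. Of the 6 granule genes tested in HSP90α-KO, 3 were past these thresholds upwards and 1 downwards, with a median log2 fold change of 1.24 against -0.01 over all tested genes. Of the same 6 genes in HSP90β-KO, 0 were past them upwards and 2 downwards, with a median of -0.74 against 0.00. In PUHr, 4 of the 10 passed the filter on low values, and 3 of these were past the thresholds downwards and 0 upwards. In either direction, 10.3% of all tested genes were called in HSP90α-KO, 4.48% in HSP90β-KO and 10.1% in PUHr. Because the genes were picked for these differences, nothing is read from the counts. PADI4, TCN1 and PRTN3 in HSP90α-KO, PADI4 in HSP90β-KO and PADI4, SRGN and PRG2 in PUHr passed the filter only through the group in which they were higher. Genes of the lists and neighbours below for which the same holds are given by their reads and fitted values without a p. Most of them are read at low depth, and when genes whose log2 CPM averaged under 1 were left out, 0 of the 10 were past the thresholds in any of the 3 comparisons. Both knockouts were compared with the same EV libraries, so their values stand side by side and are not independent of each other.

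**Figure D1:**
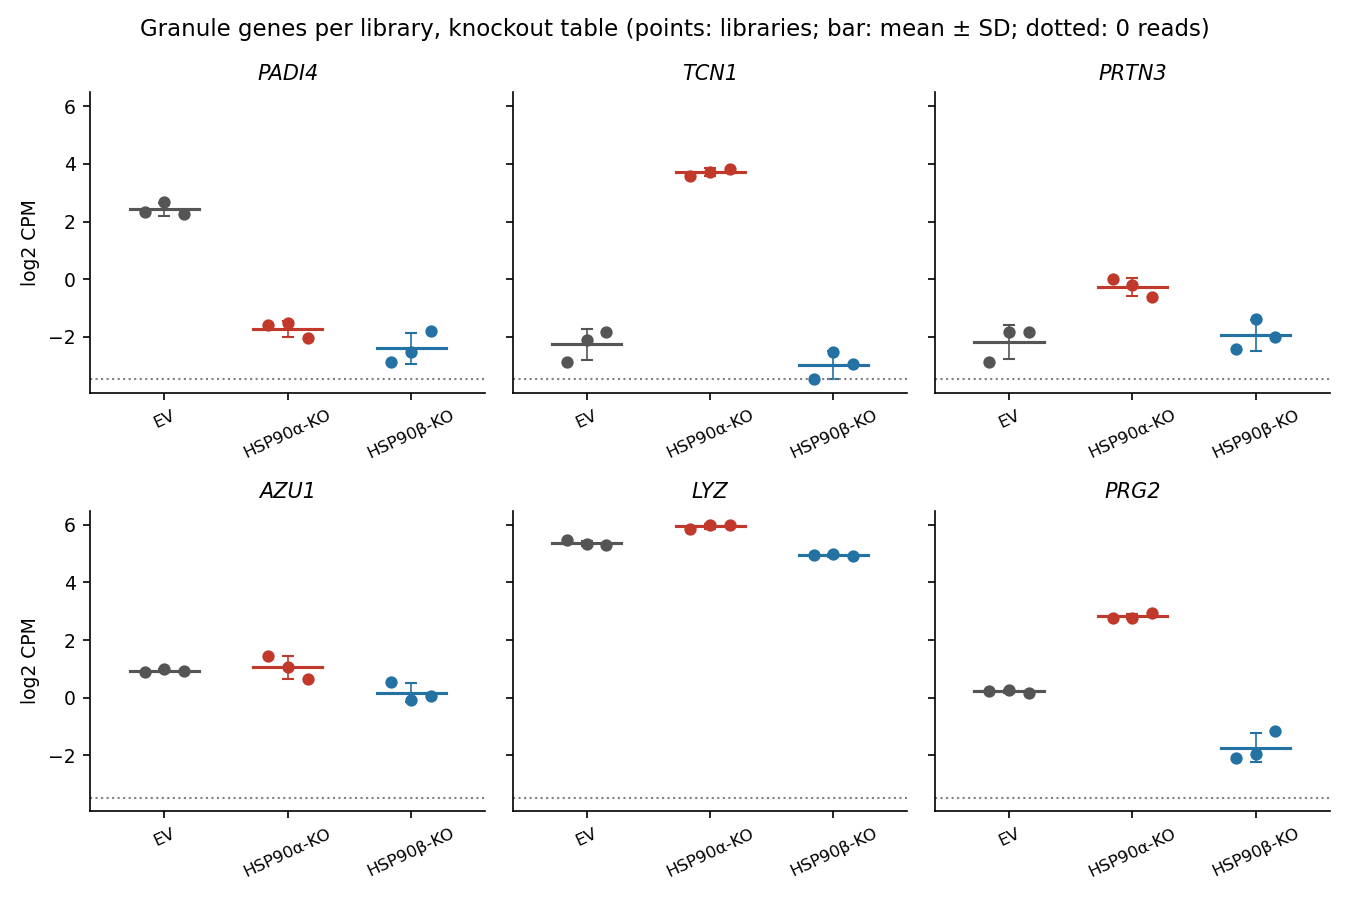
Deposited log2 CPM of the 6 granule genes with values in the knockout table, in 3 EV, 3 HSP90α-KO and 3 HSP90β-KO libraries. Points are libraries, horizontal bars are means, whiskers are SD and the dotted line is the value of 0 reads. PADI4 is high in EV only, with 104 to 131 reads, TCN1 is high in HSP90α-KO only, with 242 to 277 reads, and PRG2 takes 3 separate levels.

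PADI4 was the gene of the set that was low in all 3 altered cell states. In EV it gave 104, 131 and 125 reads, or 4.94, 6.31 and 4.76 CPM. HSP90α-KO gave 5, 5 and 3 reads (0.244, 0.259 and 0.154 CPM), and HSP90β-KO gave 1, 2 and 5 reads (0.0477, 0.0853 and 0.198 CPM). The lowest EV library therefore lay far above the highest library of either knockout, while the knockouts overlapped each other. The fitted log2 fold change was -4.14 (SE 0.30) in HSP90α-KO and -4.82 (SE 0.30) in HSP90β-KO. As a ratio of read rates, PADI4 was 24.1-fold lower in HSP90α-KO (95% interval 13.9 to 45.8) and 46.1-fold lower in HSP90β-KO (23.1 to 108), where the intervals cover counting error only.

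The same gene was low in PUHr. Parental cells gave 117, 123 and 111 reads (4.95, 5.16 and 5.21 CPM) and PUHr cells gave 7, 9 and 15 reads (0.281, 0.376 and 0.667 CPM). No library of one group reached the range of the other. The log2 fold change was -3.37 (SE 0.23), and the ratio of read rates was 11.7-fold (8.11 to 17.5). EV and parental cells, which were normalized in separate tables, had close means of 5.34 ± 0.847 and 5.10 ± 0.139 CPM (SD, n = 3 each).

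PADI2, the paralogue of PADI4 that is widely expressed in tissues, was read near the floor. Parental cells gave 5, 7 and 4 reads and PUHr cells gave 0, 1 and 0. With 1 read over the PUHr group the ratio of read rates was 16.6-fold with a wide counting interval of 2.57 to 695, and the gene did not pass the filter. The other 3 peptidylarginine deiminases were at most at 3 reads in every resistance library: PADI6 had 0 reads throughout. Among the 5 deiminases, PADI4 was thus the one that passed the filter in these cells.

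PADI4 lies on the plus strand at chr1:17308195-17364004 and PADI2 on the minus strand of the same cluster at chr1:17066761-17119451 (GRCh38, GENCODE 44). The promoter of PADI4 is shown because PADI4 was lower in all 3 comparisons. It spans 250 bases before and 50 after the RefSeq start, at chr1:17307947-17308246 on the plus strand of GRCh38.p14. Capitals in the printed windows mark matches to 5 motifs, searched on both strands. AGATAA stood for GATA factors, with TGATAA as their other spelling. GAGGAA stood for PU.1, the product of SPI1. TTNNGNAA stood for the C/EBP factors. TGTGGT stood for RUNX factors. GAANNTTC stood for the core of a heat shock element.
PADI4: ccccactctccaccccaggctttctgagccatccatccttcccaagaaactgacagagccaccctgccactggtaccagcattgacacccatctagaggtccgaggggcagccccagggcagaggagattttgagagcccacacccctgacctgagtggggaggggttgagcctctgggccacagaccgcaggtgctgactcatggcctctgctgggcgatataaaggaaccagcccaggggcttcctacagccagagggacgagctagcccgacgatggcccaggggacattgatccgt
The PADI4 window held none of these letters, and neither did that of PADI2. Among all 35116 windows of this length, 16.3% held a GATA match, 27.9% PU.1, 36.8% C/EBP, 13.1% RUNX and 6.77% the heat shock element core.

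The genes around PADI4 took mixed directions in the knockouts. PADI4 and PADI2 share the same 10 nearest tested genes, 5 on each side. In HSP90α-KO, 2 of these were called higher and 2 lower, with a median log2 fold change of 0.06, and in HSP90β-KO 1 was called higher and 2 lower, with a median of -0.15, beside 10.3% and 4.48% of all tested genes called in either direction. Of those called higher in HSP90α-KO, IFFO2 passed the filter through HSP90α-KO alone, with 21 to 35 reads against 5 to 10 in EV (1.88). RCC2, which encodes a regulator of chromosome condensation and lies 42.8 kb beyond PADI4, had log2 fold changes of 0.21 and -0.21. In PUHr, 0 were called higher and 4 lower, beside 10.1% of all tested genes, and the median was -0.82: ENSG00000228549 fell by 1.83 (limma adjusted p = 6.5e-07), ALDH4A1 fell by 1.36 (6.4e-10) and IFFO2 fell by 1.31 (0.00012), and ACTL8 went from between 82 and 94 reads to 4 or 5 (-3.86), passing the filter through parental cells alone. RCC2 and SDHB, a subunit of succinate dehydrogenase 254.2 kb on the other side, were lower by less than the fold threshold, at -0.85 and -0.79. ACTL8, 391.3 kb away, shared the direction of PADI4 in HSP90α-KO, with a log2 fold change of -1.95, but rose by 2.09 in HSP90β-KO. ENSG00000228549 shared it in each knockout, at -0.66 in HSP90α-KO (limma adjusted p = 0.0017) and -1.50 in HSP90β-KO (5.9e-08). The first of these values is short of the fold threshold. ALDH4A1 did not share it in HSP90α-KO, at 2.22, and was at -1.06 in HSP90β-KO.

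The 3 genes whose log2 CPM followed that of PADI4 most closely over the 9 knockout libraries were TMEM63A, ATF5 and HOXB8, with Pearson r of 0.991, 0.990 and 0.988. These values describe 9 libraries that share 3 groups and have no test. The likeness was in shape and not in size: TMEM63A differed by -0.47 and -0.54, ATF5, a stress-responsive transcription factor, by -0.87 and -0.99, and HOXB8 by -0.47 and -0.51, in HSP90α-KO and HSP90β-KO.

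SRGN was read in parental cells and not at all in PUHr. The 3 parental libraries gave 209, 212 and 188 reads, or 8.83, 8.89 and 8.82 CPM, and every PUHr library gave 0 reads. A count of 0 over the 3 PUHr libraries allows up to 0.0421 CPM, and against 3 reads over the group SRGN was at least 210-fold lower in PUHr. The parental libraries differed by little, with 8.85 ± 0.0391 CPM (SD, n = 3). On the fitted scale the log2 fold change of -6.70 depends on the prior count that the values carry and is no bound.

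SRGN lies at chr10:69088103-69104805 on the plus strand. In the annotation it overlaps a signal recognition particle-like RNA, Metazoa_SRP, on the same strand. None of its 10 nearest tested genes was called in PUHr in either direction, beside 10.1% of all tested genes, and their median log2 fold change was 0.06, with a range of -0.17 to 0.77. STOX1 and TACR2 passed the filter through PUHr alone, with 17 to 32 reads against 6 to 19 in parental cells (0.77) and 12 to 27 against 8 to 21 (0.26). TSPAN15 passed it through parental cells alone, with 5 to 15 reads in PUHr against 10 to 12 (-0.14). The nearest gene, VPS26A, a retromer subunit 18.7 kb away, was at 0.05 (limma adjusted p = 0.14) with 2349 to 2598 reads in PUHr, and KIFBP, 44.6 kb away on the other side, was at 0.19. The difference of SRGN was thus not shared by the tested genes beside it.

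Serglycin carries chondroitin sulfate or heparin chains. Of 28 genes for the assembly of chondroitin and heparan sulfate, 22 were tested in PUHr, and 1 was called higher and 0 lower, with a median log2 fold change of 0.12, where 10.1% of all tested genes were called in either direction. That gene was CHST3, a chondroitin 6-sulfotransferase, which rose from 2.88 ± 0.159 to 18.9 ± 0.501 CPM (log2 fold change 2.68, SE 0.09, limma adjusted p = 4.1e-12). In HSP90α-KO, 2 of 22 were called higher and 1 lower, beside 10.3% of all tested genes: DSE, an epimerase, rose by 1.16 (9.6e-08), CHST3 fell by 1.74 (3e-16), and CHST15, which passed the filter through HSP90α-KO alone, had 33 to 39 reads against 8 to 15 in EV (1.76). In HSP90β-KO, 0 were called higher and 1 lower, CHST15 at -1.50 on 1 to 4 reads, beside 4.48% of all tested genes.

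TCN1 was high in HSP90α-KO and near the floor elsewhere. EV gave 1, 3 and 5 reads (0.0475, 0.145 and 0.191 CPM), HSP90α-KO gave 242, 255 and 277 reads (11.8, 13.2 and 14.2 CPM) and HSP90β-KO gave 0, 2 and 1 reads. All HSP90α-KO libraries stood above all others, whereas EV and HSP90β-KO overlapped. The log2 fold change was 5.97 (SE 0.30) in HSP90α-KO, and 98.7-fold as a ratio of read rates (51.7 to 217). In HSP90β-KO it was -0.71 (SE 0.30), on 3 reads over the group against 9 in EV, a ratio of 0.325 with a counting interval of 0.0567 to 1.30. The resistance table gave 8, 7 and 6 reads in parental cells and 1, 1 and 0 in PUHr, a 10.9-fold lower read rate with an interval of 2.66 to 95.7, and TCN1 did not pass the filter there.

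TCN1 lies on the minus strand at chr11:59852800-59866489. Its promoter is shown because it held matches near the start, while that of PADI4 held none. The window runs over chr11:59866438-59866737 and is printed along the minus strand. Capitals mark 2 RUNX matches and 1 C/EBP match, which do not overlap, all of them on the strand opposite to the gene, so that the printed letters are the reverse complement of the motif.
TCN1: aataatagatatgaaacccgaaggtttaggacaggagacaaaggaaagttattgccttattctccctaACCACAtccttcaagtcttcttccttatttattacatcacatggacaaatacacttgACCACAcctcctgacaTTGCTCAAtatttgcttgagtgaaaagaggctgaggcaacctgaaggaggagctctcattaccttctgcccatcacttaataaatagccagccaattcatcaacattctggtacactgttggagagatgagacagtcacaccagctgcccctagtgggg
The RUNX matches begin 182 and 125 bases before the start and the C/EBP match 109 bases before it. A match describes letters in this window and no binding.

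Of the 10 tested genes nearest to TCN1, 7 were called higher and 0 lower in HSP90α-KO, beside 10.3% of all tested genes called in either direction, and 3 of the 7 passed the filter through HSP90α-KO alone. On the side of higher coordinates, MS4A3 at 190.1 kb rose by 5.85 (limma adjusted p = 5.1e-28) and MS4A4A at 319.2 kb by 6.10 (2.1e-20). The 3 genes that passed through HSP90α-KO alone lie on the same side: OOSP4B at 111.5 kb had 22 to 25 reads against 0 to 2 in EV (3.49), MS4A2 at 221.8 kb had 132 to 145 against 0 to 4 (5.46) and MS4A6A at 305.5 kb had 115 to 121 against 1 to 3 (5.01). MS4A2 is the beta chain of the high affinity IgE receptor of mast cells and basophils, and MS4A3 is a marker of granulocyte-monocyte progenitors. On the other side MRPL16 at 42 kb, a mitochondrial ribosomal protein, rose by 1.37 (1e-21) and ENSG00000254477 by 1.36 (3e-05). STX3, a syntaxin of granule exocytosis at 46.9 kb, was at 0.83 and PATL1 at 183.8 kb was at 0.22, while ENSG00000255139 at 212.9 kb went the other way at -0.63 (0.033). In HSP90β-KO, 2 of the 10 were called higher, beside 4.48% of all tested genes, MS4A4A at 2.23 (8.5e-11) and MS4A6A at 1.44 on 9 or 10 reads. In PUHr, 1 of 10 was called higher and 1 lower, beside 10.1% of all tested genes, ENSG00000254477 at 1.22 (0.00047) and MS4A3 at -1.90 (2e-10).

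Of 14 other genes of vitamin B12 handling, 12 were tested in each comparison and 0 were called in any of the 3 (limma), beside 10.3%, 4.48% and 10.1% of all tested genes. At smaller folds, 10 of 12 in HSP90α-KO, 3 in HSP90β-KO and 7 in PUHr had an adjusted p under 0.05, as did 54.2%, 34.4% and 51.4% of all tested genes. The median log2 fold changes were -0.10, 0.02 and -0.06. TCN2, the plasma carrier of the vitamin, was at -0.79 in HSP90α-KO (2.2e-08) and at 0.32 in HSP90β-KO.

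Among the azurophil genes, MPO, ELANE and PRTN3 were at or near the floor. MPO and ELANE had 0 reads in all 6 resistance libraries, which allows up to 0.0436 CPM over the parental group and 0.0421 CPM over the PUHr group, so that no fold can be given. PRTN3, the protease that is the target of antibodies in granulomatous vasculitis, gave 1, 4 and 5 reads in EV, 19, 15 and 11 in HSP90α-KO and 2, 7 and 4 in HSP90β-KO. The HSP90α-KO libraries lay above the others, and those of EV and HSP90β-KO overlapped. The log2 fold changes were 1.91 (SE 0.38) and 0.24 (SE 0.38), and as a read rate PRTN3 was 5.16-fold higher in HSP90α-KO (2.57 to 11.5). In the resistance table it gave 8, 5 and 1 reads in parental and 4, 3 and 7 in PUHr cells, which overlapped.

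AZU1, the antimicrobial azurocidin, was read at an intermediate depth. EV gave 37, 40 and 48 reads (1.76, 1.93 and 1.83 CPM), HSP90α-KO gave 54, 39 and 29 (2.64, 2.02 and 1.49 CPM) and HSP90β-KO gave 29, 20 and 24 (1.06 ± 0.282 CPM, SD, n = 3). The HSP90α-KO libraries spread on both sides of EV, and those of HSP90β-KO all lay below. The log2 fold changes were 0.11 (SE 0.22) and -0.77 (SE 0.22), both short of the fold threshold. Parental cells gave 7, 6 and 9 reads and PUHr cells 9, 11 and 8, which overlapped.

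AZU1, PRTN3 and ELANE lie next to each other on the plus strand of chromosome 19, at chr19:825097-832018, chr19:840999-848175 and chr19:851014-856247. The promoter of PRTN3, over chr19:840749-841048, is shown as that of a clustered gene which was higher in HSP90α-KO while AZU1 beside it was not. Capitals mark a PU.1 match 88 bases before the start and a C/EBP match 62 bases before it.
PRTN3: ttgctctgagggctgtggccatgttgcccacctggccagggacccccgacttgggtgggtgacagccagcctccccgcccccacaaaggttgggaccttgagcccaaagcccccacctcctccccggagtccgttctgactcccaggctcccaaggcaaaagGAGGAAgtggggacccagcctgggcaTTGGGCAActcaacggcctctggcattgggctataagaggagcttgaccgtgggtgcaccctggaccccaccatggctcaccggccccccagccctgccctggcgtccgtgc
The AZU1 window, over chr19:827587-827886, also held a C/EBP match, 111 bases before the RefSeq start. That start lies inside the GENCODE span of AZU1 given above. Of the 5 promoters read, 3 held a C/EBP match, 1 PU.1, 1 RUNX, and 0 held GATA or the heat shock element core. None of the 10 tested genes nearest to the cluster was called in any comparison, beside 10.3%, 4.48% and 10.1% of all tested genes, with medians of 0.10 in HSP90α-KO, -0.09 in HSP90β-KO and 0.13 in PUHr. CFD, complement factor D, 3.2 kb beyond ELANE, was at -0.10, -0.09 and -0.14.

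Of 13 further azurophil genes, 5 had 0 reads in all 6 resistance libraries: CTSG, DEFA4 and the near-identical copies DEFA1, DEFA1B and DEFA3, whose shared reads can be lost in counting. BPI had at most 3. Of the others, CTSC, CTSD, CTSZ, GUSB and CD63 also serve the lysosomes of most cells, and MS4A3 does not. In HSP90α-KO, 7 were tested and 1 was called higher, beside 10.3% of all tested genes called in either direction. This was MS4A3, at 405 ± 12.6 against 6.97 ± 1.02 CPM in EV. The rest had negative or near-zero differences, CTSZ at -0.89 and CTSD at -0.84 among them, and the median of the list was -0.41. In HSP90β-KO 0 of 7 were called, beside 4.48% of all tested genes, and MS4A3 stood just under the fold threshold at 0.97 (4.1e-11). The direct contrast of the knockouts gave MS4A3 a log2 difference of 4.89 (SE 0.07, 1.1e-26). In PUHr MS4A3 alone was called, of 6 tested and beside 10.1% of all tested genes, and fell by 1.90.

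LYZ, lysozyme, which cleaves bacterial cell walls, was the best read gene of the set. EV gave 924, 829 and 1028 reads (43.9, 40.0 and 39.2 CPM), HSP90α-KO gave 1179, 1227 and 1231 (57.6, 63.6 and 63.2 CPM) and HSP90β-KO gave 642, 746 and 753 (30.6, 31.8 and 29.8 CPM). The 3 groups did not overlap, with HSP90α-KO highest and HSP90β-KO lowest. The log2 fold changes were 0.58 (SE 0.05) and -0.41 (SE 0.05), and the direct difference between the knockouts was 1.00 (SE 0.05), an HSP90α-KO read rate 2.00-fold that of HSP90β-KO (1.89 to 2.11). Parental cells gave 667, 729 and 620 reads (28.2, 30.6 and 29.1 CPM) and PUHr cells 573, 592 and 554 (23.0, 24.8 and 24.6 CPM), a log2 fold change of -0.28 (SE 0.05) with no overlap. LYZ lies at chr12:69348381-69354234 and overlaps an antisense gene, ENSG00000257764. The libraries were made with a stranded kit, but the strand setting of the counting is not given in the sources used here.

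PRG2, the major basic protein of eosinophils, took a separate level in each group. EV gave 23, 23 and 27 reads (1.09, 1.11 and 1.03 CPM), HSP90α-KO gave 137, 131 and 147 (6.69, 6.79 and 7.55 CPM) and HSP90β-KO gave 3, 4 and 9 (0.143, 0.171 and 0.356 CPM). No group overlapped another. The log2 fold change was 2.60 (SE 0.23) in HSP90α-KO and -1.96 (SE 0.23) in HSP90β-KO, or 6.52-fold higher (5.08 to 8.49) and 4.67-fold lower (2.69 to 8.60) as read rates. Parental cells gave 23, 24 and 16 reads and PUHr cells 2, 1 and 1, a log2 fold change of -2.82 (SE 0.30) and a 16.3-fold lower read rate (6.07 to 61.7). PRG2 lies on the minus strand at chr11:57386780-57390650 and overlaps ENSG00000254979 on the same strand, so some reads could belong to either.

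**Figure D2:**
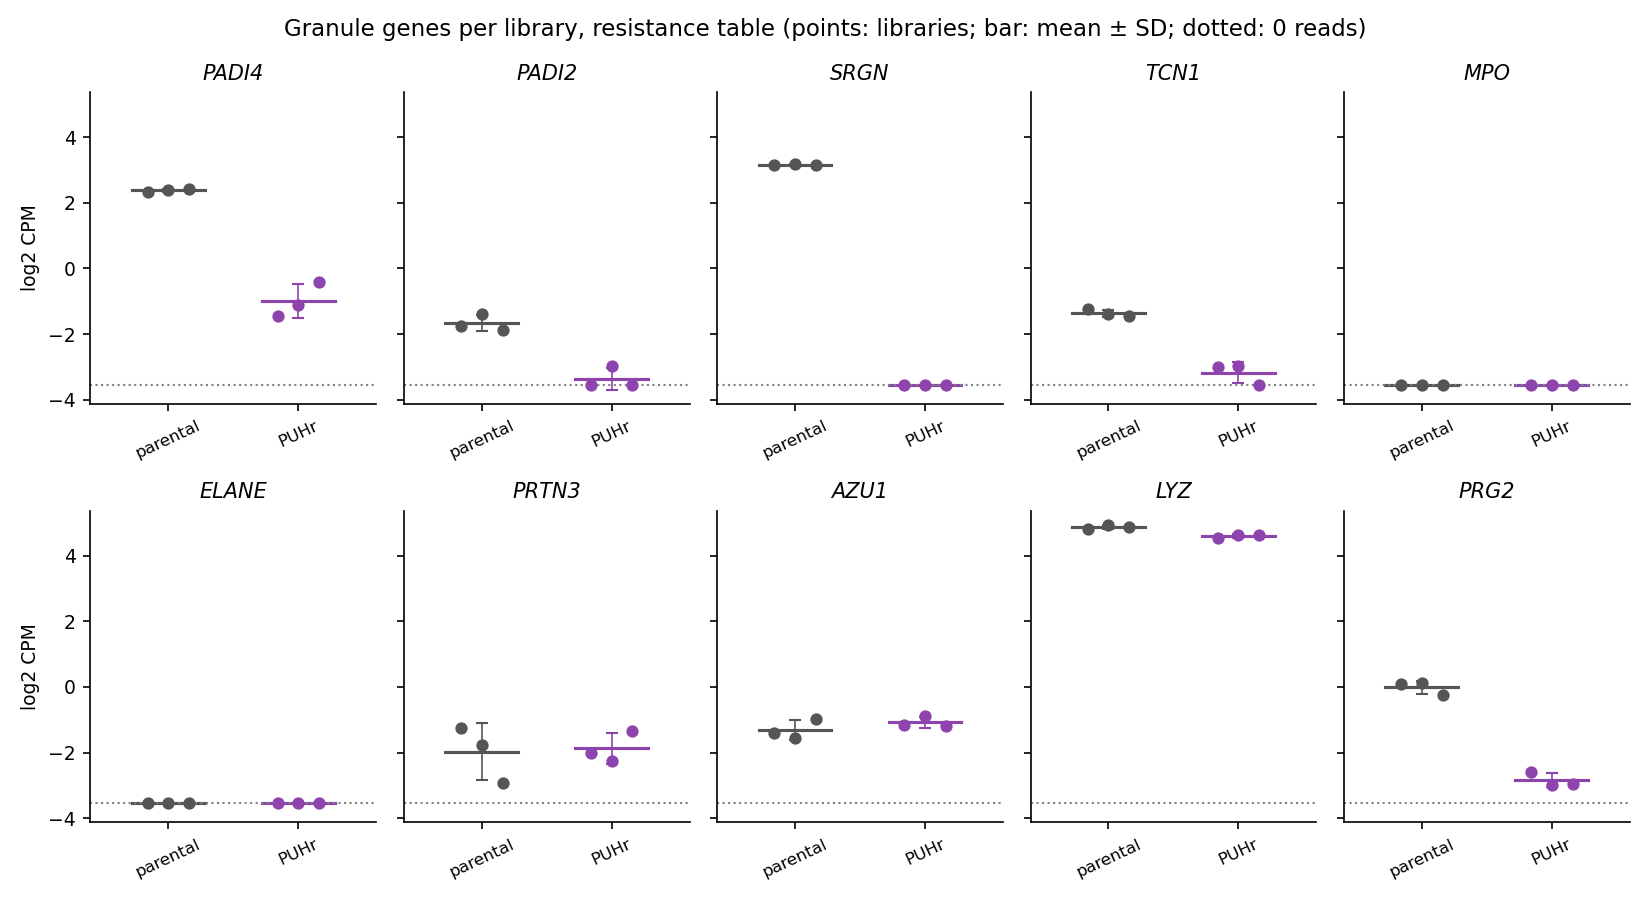
Deposited log2 CPM of the 10 granule genes in 3 parental and 3 PUHr libraries. Points are libraries, horizontal bars are means, whiskers are SD and the dotted line is the value of 0 reads. SRGN, PADI4 and PRG2 are lower in all PUHr libraries, with SRGN at 0 reads, while AZU1 and PRTN3 overlap and MPO and ELANE are at 0 reads in both groups.

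The HSP90α-KO libraries stood wholly above EV for 4 of the 6 genes and wholly below for 1. The HSP90β-KO libraries stood above EV for 0 and below for 4, and the PUHr libraries stood above parental cells for 0 of the 10 genes and below for 6. The count for PUHr includes PADI2 and TCN1, which did not pass the filter. The shares that follow cover tested genes only. Among all tested genes the libraries were separated upwards for 29.0% and downwards for 28.3% in HSP90α-KO, for 23.5% and 23.1% in HSP90β-KO and for 29.2% and 29.3% in PUHr. The differences between the knockouts themselves were 6.69 (SE 0.30) for TCN1, 4.56 (SE 0.23) for PRG2 and 1.67 (SE 0.38) for PRTN3 on the log2 scale, all higher in HSP90α-KO, against 0.68 (SE 0.30) for PADI4, whose libraries overlapped.

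**Figure D3:**
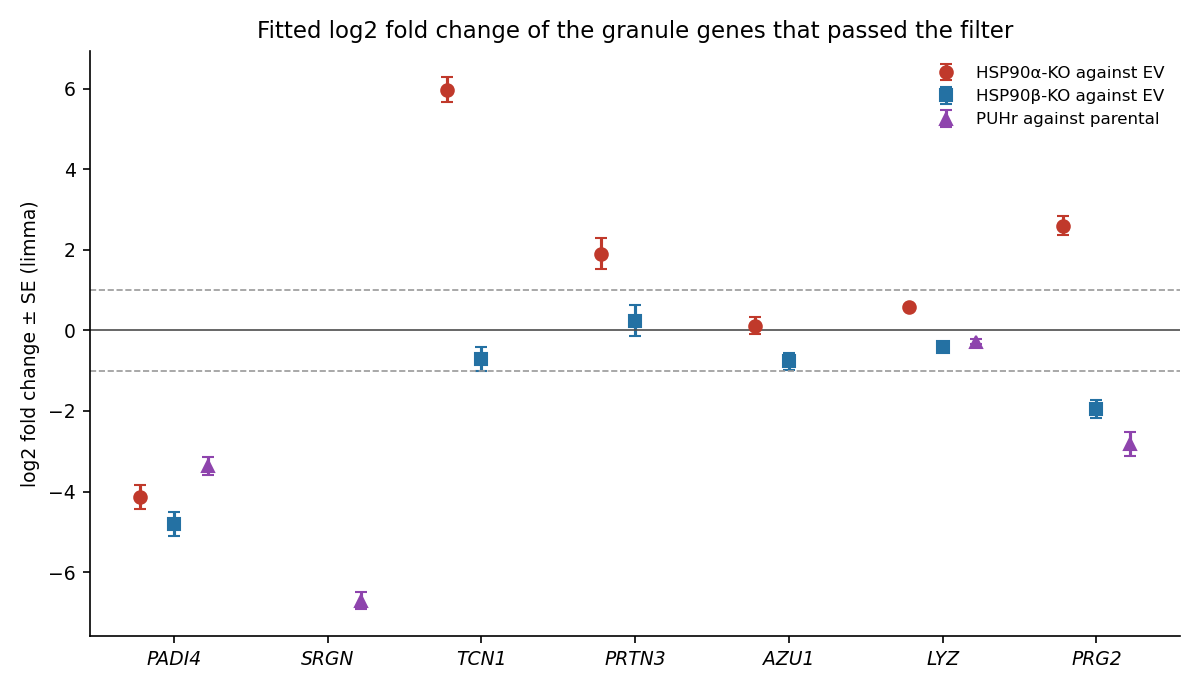
Fitted log2 fold change with SE of the granule genes that passed the filter on low values, in HSP90α-KO and HSP90β-KO against EV and in PUHr against parental cells. Dashed lines mark 1 and -1. PADI4 lies between -4.82 and -3.37 in all 3, and PRG2 lies at 2.60 in HSP90α-KO, -1.96 in HSP90β-KO and -2.82 in PUHr.

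Per kilobase of exon, LYZ was highest in every group, with 23.8 ± 1.48 CPM per kb (SD, n = 3) in EV. PADI4 followed in EV at 1.80 ± 0.285, then AZU1 at 1.03 ± 0.0475, PRG2 at 0.584 ± 0.0229, PRTN3 at 0.130 ± 0.0752 and TCN1 at 0.0851 ± 0.0487, of which PRTN3 and TCN1 were within their spread. In HSP90α-KO TCN1 moved to the place after LYZ with 8.72 ± 0.805 CPM per kb, before PRG2 at 3.80 ± 0.255, and PADI4 was last at 0.0737 ± 0.0191. In HSP90β-KO AZU1 came after LYZ with 0.596 ± 0.158, PRTN3 and PRG2 at 0.166 ± 0.0940 and 0.121 ± 0.0629 were within their spread, and so were PADI4 and TCN1 at 0.0371 ± 0.0263 and 0.0278 ± 0.0285. In parental cells the order was LYZ at 17.0 ± 0.699, SRGN at 7.27 ± 0.0322, PADI4 at 1.72 ± 0.0467 and PRG2 at 0.493 ± 0.0754, and TCN1, AZU1 and PRTN3 lay together between 0.179 and 0.203. In PUHr LYZ kept 14.0 ± 0.565 CPM per kb, and no other gene of the set was above 0.220.

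Genes of eosinophil, basophil and mast cell granules, the company in which PRG2 is usually found, were read at low depth. In HSP90α-KO, 5 of 16 were tested, and 3 of these passed the filter through HSP90α-KO alone, so their count and median carry no weight. Of the remaining 2, EPX, eosinophil peroxidase, rose from 1.09 ± 0.0666 to 7.54 ± 0.0721 CPM (2.70, limma adjusted p = 1.3e-12), and HDC, which makes histamine, was at -0.45. The 3 were MS4A2, IL5RA, the interleukin 5 receptor of eosinophils, with 131 to 141 reads against 2 to 6 in EV (4.95), and PRG3, a close homologue of PRG2, with 9 to 13 reads against 1 to 3 (1.89). In HSP90β-KO 1 was called higher and 0 lower, beside 4.48% of all tested genes: HDC rose by 1.54 (1.7e-05), EPX was at -0.58, and PRG3 had 0 reads. In PUHr 2 were tested, both through parental cells alone: EPX had 7 to 10 reads against 54 to 63 (-2.59) and HDC 4 to 7 against 46 to 66 (-3.04). Between the knockouts EPX differed by 3.28 (1.5e-14).

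In the resistance libraries, 6 of the 16 genes had 0 reads in every library, namely CLC, CPA3, FCER1A, RNASE2, RNASE3 and TPSAB1, and CCR3, CMA1, HPGDS, PRG3 and TPSB2 had at most 3 reads in each. The summed level of the list was 2.00 to 2.51 CPM in EV, 22.2 to 22.8 in HSP90α-KO and 2.72 to 4.04 in HSP90β-KO over 5 genes, and 5.16 to 6.003 in parental and 0.667 to 1.09 in PUHr cells over 16. In bulk RNA, fewer cells of a type and less RNA per cell cannot be told apart.

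Of 17 genes of specific and gelatinase granules, which in neutrophils hold TCN1, 4 were tested in the knockout table. CYBB, the catalytic subunit of the phagocyte oxidase, rose by 1.20 in HSP90α-KO (1.4e-15) from 15.4 ± 0.749 to 35.6 ± 1.09 CPM, while CYBA, its partner subunit, was at -0.28, PGLYRP1 at 0.21 and ARG1 at -0.25, and the median of the 4 was -0.02. With CYBB, 1 of 4 was called, beside 10.3% of all tested genes. In HSP90β-KO 0 were called (limma) and 0 had an adjusted p under 0.05, beside 4.48% and 34.4% of all tested genes, and the median was 0.10. The contrast of the knockouts gave CYBB 1.09 (6.9e-15). In PUHr CYBB was at 0.36 and CYBA at -0.26, and CHI3L1, a chitinase-like protein that passed the filter through PUHr alone, had 38 to 95 reads against 0 or 1 in parental cells (4.79). LTF, CAMP, MMP8 and CEACAM8, which define these granules, had at most 3 reads in any resistance library.

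Of 18 transcription factors that act on granule genes, 16 were tested. In HSP90α-KO 2 were called higher and 1 lower, beside 10.3% of all tested genes called in either direction, with a median log2 fold change of 0.25. GFI1, a zinc finger repressor needed for neutrophil maturation, rose from 1.29 ± 0.200 CPM in EV to 14.6 ± 1.03 CPM (log2 fold change 3.42, SE 0.19, limma adjusted p = 2.1e-14). MYB, which keeps progenitors immature, rose by 1.06 (6.5e-21), and CEBPA, the factor that opens the granulocyte programme, fell by 1.11 (1.1e-07). CEBPD was at 0.99, just under the fold threshold, and SPI1, which encodes PU.1, was at 0.56.

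In HSP90β-KO 0 factors were called higher and 1 lower, beside 4.48% of all tested genes, with a median of -0.13: GFI1 fell by 1.76 (2.9e-08) to 0.324 ± 0.101 CPM. Between the knockouts GFI1 differed by 5.18 (1.8e-18), CEBPD by 1.15 (2.2e-12) and CEBPA by -1.18 (2.7e-08). In PUHr 1 was called higher and 3 lower, beside 10.1% of all tested genes. GFI1, which passed the filter through parental cells alone, had 8 or 9 reads against 93 to 103 (-3.27). SPI1 fell by 1.46 (4.5e-11), from between 629 and 763 reads to between 239 and 274, CEBPD fell by 1.17 (0.0026), and KLF4 rose by 1.05 (0.00018). GATA1 and GATA2, the erythroid and progenitor factors, stayed between -0.35 and 0.19 in the 3 comparisons, as did GFI1B, a homologue of GFI1, which stayed between -0.30 and 0.02. The remaining tested factors were CEBPB, CEBPG, RUNX1, CBFB, LEF1, RARA and ZFPM1, with log2 fold changes between -0.16 and 0.68. CEBPE and IRF8 did not pass the filter in the resistance table and were not analysed in the knockout table.

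**Figure D4:**
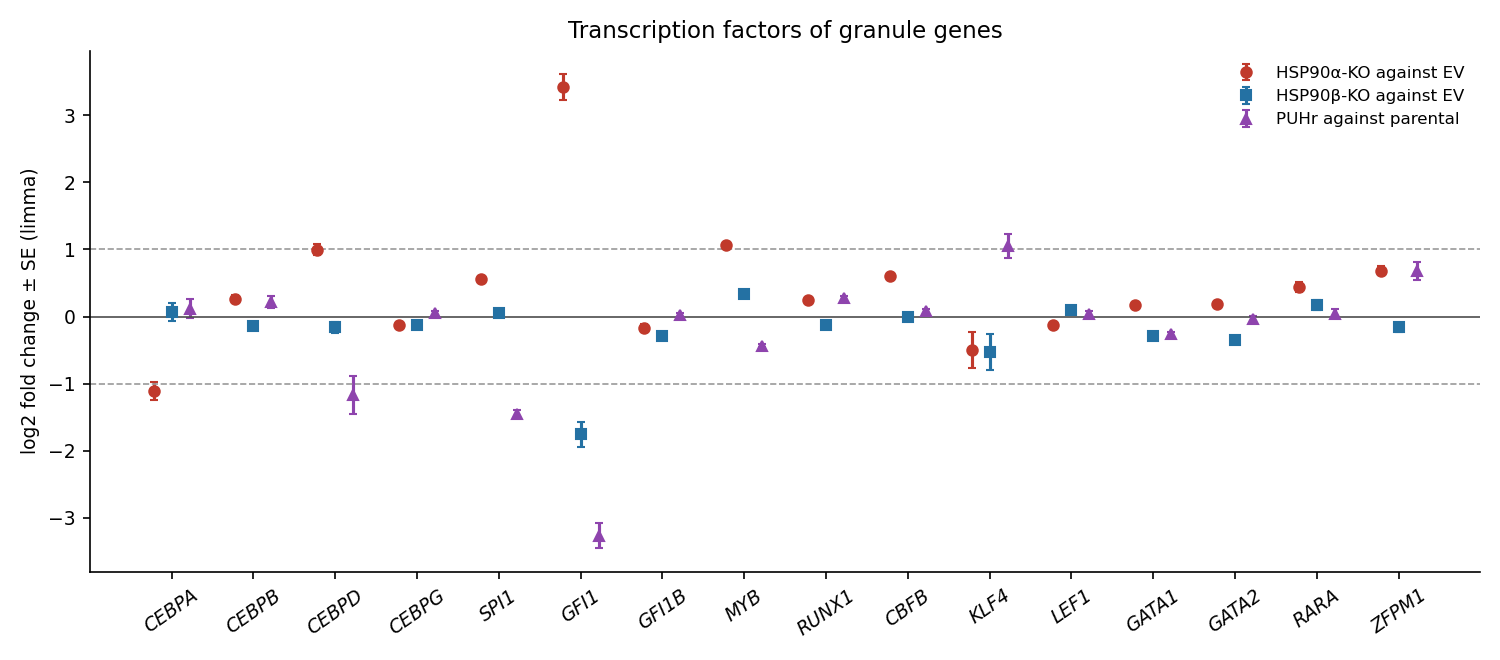
Fitted log2 fold change with SE of 16 transcription factors of granule genes in HSP90α-KO and HSP90β-KO against EV and in PUHr against parental cells. Dashed lines mark 1 and -1. GFI1 lies at 3.42 in HSP90α-KO, -1.76 in HSP90β-KO and -3.27 in PUHr, and most other factors lie within the dashed lines.

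The machinery that sorts and releases granules held 22 tested genes in each table. In HSP90α-KO 2 were called higher and 0 lower, beside 10.3% of all tested genes called in either direction, and UNC13D, which primes granules for fusion with the cell membrane, rose from 18.7 ± 1.42 to 211 ± 15.3 CPM (log2 fold change 3.49, SE 0.07, limma adjusted p = 2.3e-24). STX11, a syntaxin for the same step, had 8 or 9 reads against 2 in each EV library (1.51). It passed the filter through the knockout libraries alone, where it was higher, so it lends the count no weight. In HSP90β-KO 1 was called higher and 2 lower, beside 4.48% of all tested genes. UNC13D fell by 2.12 (limma adjusted p = 6.9e-19), and LYST, the regulator of granule size that is lost in Chediak-Higashi syndrome, fell by 1.61 (1.5e-12). STX11, the 1 called higher, had 9 to 14 reads (1.59) and again passed the filter through the knockout libraries alone, so that call carries no weight. In PUHr 0 were called higher and 2 lower, beside 10.1% of all tested genes: UNC13D fell by 2.70 (3.7e-11) and LYST fell by 1.57 (4.2e-09). UNC13D differed by 5.62 between the knockouts (9.8e-29). The medians of the list were 0.09, 0.04 and -0.10.

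Of 7 protease inhibitors of granule enzymes tested in the knockout table, 1 was called lower in each knockout and 0 higher, beside 10.3% and 4.48% of all tested genes called in either direction: CST3 (cystatin C) at -1.25 in HSP90α-KO (4.2e-18) and CSTA (cystatin A) at -1.68 in HSP90β-KO (0.00016). In PUHr 0 of 6 were called (limma), beside 10.1% of all tested genes, and 4 of the 6 had an adjusted p under 0.05, beside 51.4%. SERPINB1, the inhibitor of the neutrophil serine proteases, was at 0.15, -0.11 and 0.25.

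Some markers of other blood cells were called in the same comparisons, and their part in the differences was not tested. Of 20 markers of mature neutrophils and monocytes, 7 were read in the knockout table and summed to between 386 and 396 CPM in EV, 446 and 478 in HSP90α-KO and 275 and 279 in HSP90β-KO. In HSP90α-KO 2 of 7 were called higher, ITGAX (2.44, 1.5e-13) and FCGR1A (1.26, 1.9e-13), and 1 lower, ANPEP (-1.68, 5.4e-09), beside 10.3% of all tested genes called in either direction. In HSP90β-KO 1 of 7 was called higher and 1 lower, beside 4.48% of all tested genes. CSF3R, the G-CSF receptor, was called lower (-1.75, 9.3e-21), and VCAN, called higher, had 17 to 23 reads against 0 or 1 and passed the filter through HSP90β-KO alone (3.23). In the resistance table all 20 summed to between 129 and 134 CPM in parental and between 86.7 and 89.6 CPM in PUHr cells, with ANPEP called higher (1.20, 7.9e-06) and ITGAX lower (-1.46, 2.7e-05) among 6 tested, beside 10.1% of all tested genes. Of the 20, CSF2RA, FCN1, S100A8, S100A9 and S100A12 had 0 reads in parental cells, and CSF2RA, CXCR2, FPR1 and S100A12 had 0 in PUHr, while CD33 measured 87.5 and 49.2 CPM and ITGAM 25.4 and 18.3 CPM in the same order.

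Erythroid markers took both directions in HSP90α-KO, but the called genes other than SLC4A1 were all lower. Their sum was 863 to 874 CPM in EV, 639 to 647 in HSP90α-KO and 742 to 773 in HSP90β-KO, and 2635 to 2663 in parental and 2022 to 2125 in PUHr cells. Of 12 tested, 1 was called higher and 4 lower in HSP90α-KO, beside 10.3% of all tested genes called in either direction. ALAS2, the first enzyme of heme synthesis, was at -1.56 (limma adjusted p = 5.5e-23), HBA2 at -1.33 and HBG2 at -1.22. SLC4A1, the 1 called higher, had 15 to 17 reads against 3 to 11 in EV (1.21). It passed the filter through HSP90α-KO alone, so that call carries no weight. EPOR, the erythropoietin receptor, was at 0.41, KLF1 at 0.24 and TFRC, the transferrin receptor, at -0.04. HBA2 and HBG2 have near-identical copies, so their counts are uncertain. In HSP90β-KO 0 of 12 were called (limma), with 6 at an adjusted p under 0.05, beside 4.48% and 34.4% of all tested genes. In PUHr 1 of 13 was called higher and 3 lower, beside 10.1% of all tested genes, with ALAS2 at 1.01 and HBA2 at -2.15. AHSP (-2.93) and SLC4A1 (-2.80) were tested through parental cells alone, with 0 to 1 and 4 to 13 reads in PUHr against 14 to 22 and 54 to 70.

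The megakaryocyte markers, 4 of 11 read in the knockout table, summed to between 12.5 and 18.3 CPM there, and 0 of 3 tested were called in either knockout (limma), with 2 at an adjusted p under 0.05 in each. Of all tested genes, 10.3% and 4.48% were called and 54.2% and 34.4% had such a p in HSP90α-KO and HSP90β-KO. In PUHr 3 of 7 were called higher and 1 lower, beside 10.1% of all tested genes. VWF (2.28), PPBP (1.97) and GP6 (1.79) passed the filter through PUHr alone. In PUHr they had 27 to 35, 28 to 32 and 15 to 21 reads, against 2 to 6, 2 to 10 and 3 to 4 in parental cells. ITGA2B was at -1.11 (limma adjusted p = 1.7e-07), and the sum of 11 markers was 19.6 to 20.8 CPM in parental and 15.1 to 17.6 CPM in PUHr cells. Lymphoid markers, 7 of 12 read in the knockout table, summed to 16.7 to 18.5 CPM in EV, 11.5 to 12.7 in HSP90α-KO and 26.5 to 29.4 in HSP90β-KO. Of 6 tested, 2 were called lower and 0 higher in HSP90α-KO, CD3E (-2.85, 4.7e-10) and CD3G (-2.60, 8.2e-08), and 2 were called higher and 0 lower in HSP90β-KO, CD3G (1.59, 0.00022) and CD3D (1.26, 6.4e-10), beside 10.3% and 4.48% of all tested genes called in either direction. In PUHr 0 of 5 lymphoid markers were called (limma), with 4 at an adjusted p under 0.05, beside 10.1% and 51.4% of all tested genes. The sum of 12 was 15.6 to 15.9 CPM in parental and 11.1 to 11.5 CPM in PUHr cells, and MS4A1, which defines B cells, was at 0 in both groups.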

How the data were processed

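RNA of K562 cells was sequenced as single reads from a stranded mRNA kit. According to the methods of the study and the submitters' processing notes, the authors checked reads with FastQC and MultiQC, aligned them with STAR to hg38 and counted them with featureCounts. The authors then normalized the counts with edgeR, and the deposited values are log2 CPM with a prior count. Versions, annotation release, strand setting and the filter behind the shorter knockout table are not given in the sources used here. The 30 and 114 entries without a gene identifier were left out, which took 0.027 to 0.036% of the reads. Whole reads were recovered from the log2 CPM steps in 100% of the values examined (all but the highest counts), with a largest deviation of 6.93e-07 reads from a whole number.

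Genes that reached a log2 CPM of -1 in 3 or more libraries were fitted with limma 3.58.1 (trend) in R 4.3.3, each table apart because it was normalized apart, and p-values were adjusted by Benjamini-Hochberg over all tested genes. On simulated counts the fit recovered 200 of 200 planted changes of log2 fold change 2 among 16709 genes for HSP90α-KO against EV and among 16225 for PUHr against parental cells. The changes were planted only in genes above a minimum mean read count, with a small set spread between replicates. The recovery therefore does not cover the granule genes that were read near the floor. Intervals of read-rate ratios are exact at 95% and cover counting error only, a count of 0 was bounded by 3 reads over the group, and levels per kb used the union of exons in GENCODE 44. The members and all 13 gene lists (202 genes) were chosen with earlier results of these data known. All members and transcription factors are named, and from every other list the called genes of each comparison, at most 4 by size of log2 fold change. The 3 genes most like PADI4 by Pearson r, among those averaging a log2 CPM of at least 1, are named as well. The 5 nearest tested genes on either side of a member were all counted, but only some are named, picked after their values were seen. Other list genes were named after their values were seen: TCN2, CTSC, CTSD, CTSZ, GUSB, CD63, SERPINB1, CYBA, PGLYRP1, ARG1, EPOR, KLF1, TFRC, CD33, ITGAM and those at or near 0 reads. The same holds for values of named genes in comparisons that did not call them. Alternatives were other filters, pseudocounts, scalings, voom on the recovered reads, adjusted p alone, a replicate block and each library left out.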

Additional observations from a re-analysis of the deposited data

How the results depend on the processing

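Over 27 alternatives to the settings used, the log2 fold changes of the granule genes gave 265 values, of which 31 moved by more than the spread between replicates. All kept their direction except those of AZU1 in HSP90α-KO (range -0.08 to 0.32, above 0 in 18 of 19) and of PRTN3 in HSP90β-KO (range -0.11 to 0.59, above 0 in 13 of 15), which overlapped EV. Sizes of low genes depended on the pseudocount: in HSP90α-KO PADI4 ranged from -4.46 to -0.98, TCN1 from 1.82 to 6.55, PRG2 from 0.98 to 2.68 and PRTN3 from 0.16 to 2.35, in HSP90β-KO PADI4 ranged from -5.45 to -1.01, PRG2 from -2.24 to -0.22, TCN1 from -1.38 to -0.02 and AZU1 from -0.96 to -0.17, and in PUHr SRGN ranged from -8.72 to -1.47, PADI4 from -3.66 to -0.89 and PRG2 from -3.63 to -0.23, each smallest in size with a pseudocount of 5 CPM. Counts depended more on how low genes were treated. With only genes at a mean log2 CPM of 1 or more, 355 genes were called higher and 362 lower in HSP90α-KO, 112 and 160 in HSP90β-KO and 422 and 329 in PUHr, and 0 granule genes were called in either direction, since these genes lie below that filter or change less. With a pseudocount of 1 CPM the counts were 470 and 353, 142 and 147, and 480 and 461, with 1 granule gene lower in HSP90β-KO. With a pseudocount of 5 CPM they were 195 and 151, 46 and 44, and 202 and 183, with 1 granule gene higher and 0 lower in HSP90α-KO, 1 lower in HSP90β-KO and 1 lower in PUHr. By adjusted p alone they were 4692 and 4538, 2938 and 2926, and 4221 and 4259, with 4 granule genes lower in HSP90β-KO.

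Leaving out each library in turn gave 1 to 3 granule genes higher and 0 to 1 lower in HSP90α-KO, 1 to 2 lower in HSP90β-KO and 1 to 3 lower in PUHr, and 488 to 801 genes lower in PUHr. The 0 came when EV 1, EV 2 or EV 3 was left out, the 1 higher when HSP90α-KO 1, 2 or 3 was, and the 1 lower in HSP90β-KO when EV 2 or EV 3 was. Without EV 1 the count in HSP90β-KO held TCN1 in place of PADI4. The 1 lower in PUHr, and the 488, 498 and 493 genes, came without parental 1, 2 and 3 in turn. In these fits a gene high in the shortened group alone can no longer reach the 3 libraries of the filter and is not tested. Replicate numbers are shared between groups, but libraries of the same number did not deviate together (correlations -0.184 to 0.066 and -0.024 to 0.099). Libraries of different numbers gave correlations of -0.252 to 0.215 and -0.079 to 0.064, which the replicate block does not cover. With that block 907 genes were called higher and 852 lower in HSP90α-KO, 310 and 453 in HSP90β-KO and 887 and 775 in PUHr, with the counts of granule genes at 3 and 1, 2, and 3. At the depth of these libraries PADI2, MPO, ELANE, PRTN3, AZU1 and TCN1 did not pass the filter in the resistance table and were not tested there.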
